A study of Mus musculus with 12 samples.

Results

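Amacrine cells are the inhibitory interneurons of the inner retina, and 9 genes that mark them or make and move their transmitters were followed here: Gad1, Gad2, Slc32a1, Slc6a9, Chat, Slc18a3, Th, Pax6 and Tfap2b. They were chosen by gene name from the 32867 genes of the expression table, and all 9 were found there and passed the filter on low counts in each comparison. Whole retinas were sequenced from 4 groups of 3 samples. Pde6b rd1 mice, which carry a retroviral insertion in the rod phosphodiesterase gene Pde6b, were taken at postnatal day (PN) 13. Pde6b rd10 mice, with a point mutation in the same gene, were taken at PN23, and Prph rd2 mice, with a mutated Prph2, at PN29. The C3H group, wild type at both genes, held 1 sample each of PN13, PN23 and PN29. Pde6b rd1 was on the C3H background and Pde6b rd10 on C57BL6/J, while the methods give C3H for Prph rd2 and the sample labels C57BL6/J. The 3 samples of each model thus shared 1 day. The day, the model and, for Pde6b rd10, the background cannot be told apart in a comparison with C3H. The sources used here do not say whether each sample was a separate animal, so the p-values measure only the spread between these samples.

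Most amacrine cells inhibit with either GABA or glycine. GABA is made from glutamate by the glutamate decarboxylases Gad1 (GAD67) and Gad2 (GAD65), glycine is taken up by the transporter Slc6a9 (GlyT1), and Slc32a1 (VGAT) loads both into synaptic vesicles. Starburst amacrine cells also release acetylcholine, which Chat synthesises and Slc18a3 (VAChT) loads into vesicles, and dopaminergic amacrine cells use Th, the rate-limiting enzyme of dopamine synthesis. Pax6 and Tfap2b are transcription factors of the amacrine lineage. Several of these genes are not confined to amacrine cells: Gad1 and Slc32a1 are also known from horizontal cells, Slc6a9 from glia and Pax6 from ganglion and horizontal cells. In whole retina, fewer cells of a type and less RNA per cell cannot be told apart.

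The samples held 17049495 to 24755890 reads on genes. Pde6b had 4937 to 6253 reads in Pde6b rd1 against 24335 to 29129 in C3H. Its log2 fold change was -0.57 ± 0.03 (SE) in Pde6b rd10 and -0.24 ± 0.04 in Prph rd2. Prph2 had a log2 fold change of -1.06 ± 0.05 in Prph rd2, -0.83 ± 0.03 in Pde6b rd1 and -0.49 ± 0.04 in Pde6b rd10. Both genes were thus lower in the labelled models, but not in those alone. The sexes of the groups were not alike. The 3 C3H samples held 8 to 10 Xist reads each, whereas in Pde6b rd1 all 4 Y-linked genes examined had 0 reads in all 3 samples and Xist had 64914 to 83716. Xist and the Y-linked genes were both read in each Pde6b rd10 and Prph rd2 sample. Whether these samples pooled animals of both sexes was not tested. Sex therefore cannot be told apart from the model either. The biological coefficient of variation was 3.10% in C3H and 3.34% in Pde6b rd1 but 5.02% in Pde6b rd10 and 7.30% in Prph rd2, which makes Prph rd2 the group with the least precise values.

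Levels are given in FPKM, reads scaled to exon length and to the reads on genes of a sample, and are mean ± SD of 3 samples. In C3H the order of the 9 genes was led by Tfap2b (40.6 ± 0.504) and Slc32a1 (36.4 ± 2.35), followed by Gad1 (33.9 ± 0.193), Slc6a9 (26.9 ± 0.445), Pax6 (19.8 ± 0.648) and Gad2 (14.0 ± 0.694). The genes of the rarer types were lower, with Slc18a3 at 6.16 ± 0.597, Chat at 2.04 ± 0.240 and Th at 0.978 ± 0.145 FPKM. Slc32a1 and Gad1 were neighbours whose sample ranges met, since the lowest Slc32a1 value (33.7) was not above the Gad1 values (33.7 to 34.1). The levels span from Tfap2b, above 97.5% of all genes in the table, to Th, above 56.9%.

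**Figure D1:**
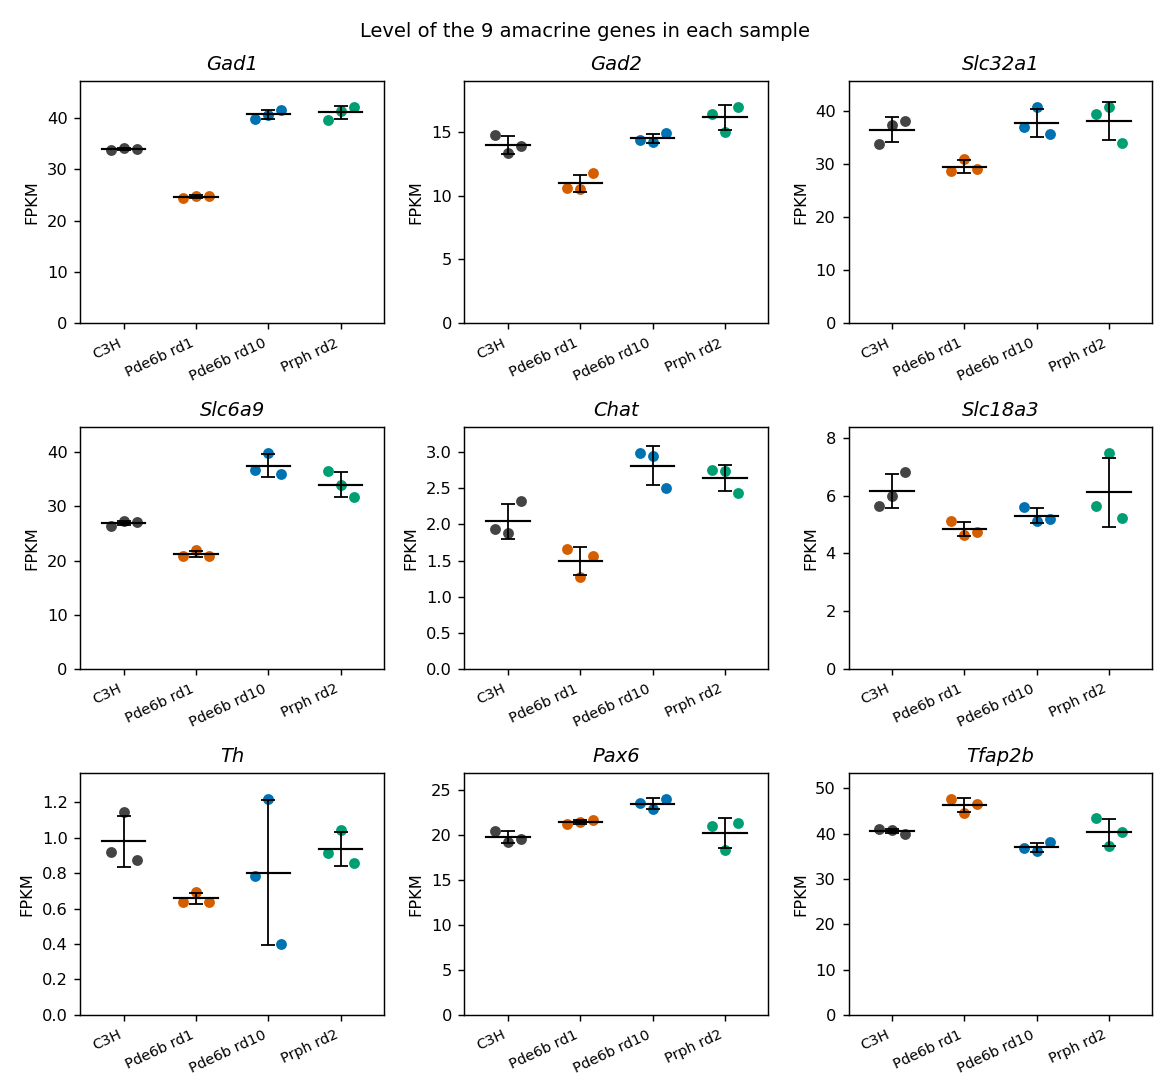
Level of each gene (FPKM, vertical axis from 0) in the 12 samples, 3 per group. Points are samples, the horizontal line is the group mean and the bar its SD. The 3 Pde6b rd1 samples lie below the 3 C3H samples for the 7 transmitter genes, and above them for Tfap2b (46.3 against 40.6 FPKM on average).

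In Pde6b rd1 at PN13 the genes for making, loading and taking up transmitter were all lower than in C3H, while the transcription factors were not. By edgeR's quasi-likelihood test with a Benjamini-Hochberg adjusted p under 0.05 over all genes, 7 of the 9 were lower, where 21.3% of all tested genes were, and 1 was higher (21.9% of all genes). At an unadjusted p under 0.05 and at least 1.5-fold, the thresholds of the study, 1 gene was lower, Th, beside 6.03% of all genes, and none was higher. The median log2 fold change of the 9 was -0.42 and that of all genes -0.01.

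Gad1 was at 33.7, 34.1 and 33.9 FPKM in the C3H samples of PN13, PN23 and PN29, and at 24.4, 24.8 and 24.8 in Pde6b rd1. The groups were far apart, and the C3H sample of PN13 stood with the other C3H samples. The fitted level fell to 0.692 of that in C3H (log2 fold change -0.53 ± 0.03 (SE), edgeR adjusted p = 1.38e-12). Gad2 was at 14.7, 13.4 and 13.8 FPKM in C3H and 10.6, 10.5 and 11.7 in Pde6b rd1, without overlap (log2 fold change -0.42 ± 0.05, edgeR adjusted p = 2.06e-07). Slc32a1 read 33.7, 37.3 and 38.1 FPKM in C3H, where the lowest value was that of PN13, and 28.6, 30.8 and 29.0 in Pde6b rd1 (log2 fold change -0.38 ± 0.05, edgeR adjusted p = 4.28e-07). Slc6a9, on the glycine side, read 26.4, 27.3 and 27.1 FPKM in C3H and 20.9, 21.9 and 20.8 in Pde6b rd1 (log2 fold change -0.42 ± 0.04, edgeR adjusted p = 1.48e-09). These 4 decreases kept an adjusted p under 0.05 when Pde6b rd1 was set against the single C3H sample of PN13, with log2 fold changes from -0.53 (Gad1) to -0.27 (Slc32a1), the lone sample being assumed to vary like the others.

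The cholinergic and dopaminergic genes were also lower in Pde6b rd1, on fewer reads. Chat read 1.94, 1.88 and 2.32 FPKM in C3H and 1.66, 1.27 and 1.56 in Pde6b rd1, from 102 to 216 reads per sample (log2 fold change -0.51 ± 0.12, edgeR adjusted p = 0.00109). Slc18a3 read 5.66 FPKM in the C3H sample of PN13, 6.82 in that of PN29 and a value between them at PN23, and 5.12, 4.64 and 4.75 in Pde6b rd1 (log2 fold change -0.42 ± 0.09, edgeR adjusted p = 6.24e-04). Neither gene's groups overlapped. Th, at 0.916, 1.14 and 0.875 FPKM in C3H and 0.639, 0.695 and 0.637 in Pde6b rd1, rested on 28 to 65 reads per sample. Its log2 fold change was -0.66 ± 0.22 (edgeR adjusted p = 0.0169). The adjusted p did not pass without the C3H sample of PN23 (-0.53) or without Pde6b rd1 replicate 1 (-0.63). Nor did it pass by DESeq2 (-0.65) or in 1 fit of all 12 samples (-0.68). Among these runs, the 1.5-fold call of Th was lost only without the C3H sample of PN23. Against the C3H sample of PN13 alone, the differences of Chat (-0.44), Slc18a3 (-0.30) and Th (-0.56) did not pass the threshold (edgeR adjusted p = 0.0521, 0.0897 and 0.240).

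Pax6 and Tfap2b went another way in the same retinas. Tfap2b read 40.9, 40.7 and 40.0 FPKM in C3H and 47.7, 44.6 and 46.5 in Pde6b rd1, all above C3H, with a log2 fold change of 0.12 ± 0.03 (edgeR adjusted p = 0.00461) that lost its call without Pde6b rd1 replicate 1 (0.10), against the C3H sample of PN13 alone (0.10) and in the fit of all 12 samples (0.09). Pax6 read 20.5, 19.2 and 19.6 FPKM in C3H and 21.3, 21.5 and 21.6 in Pde6b rd1. In edgeR, which scales by TMM factors rather than by all reads, its log2 fold change was 0.04 ± 0.03 and did not pass (adjusted p = 0.304), and by limma on log2(FPKM + 1) it was 0.11 and did.

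In Pde6b rd10 at PN23 the transmitter genes moved in both directions, and so did the transcription factors. By the edgeR adjusted p, 4 were higher (Slc6a9, Chat, Gad1 and Pax6; 27.7% of all genes were) and 2 lower (Slc18a3 and Tfap2b; 26.3%), and 0 of the 9 passed an unadjusted p under 0.05 with at least 1.5-fold, by edgeR, DESeq2 or limma, where 23.9% of all genes were called in either direction by edgeR. Without the fold threshold, the same 6 had an unadjusted p under 0.05, as did 58.9% of all genes. The median log2 fold change was -0.00 for the 9 genes and for all genes. The share of genes that differed was near the background, and the members differed among themselves in direction.

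Slc6a9 rose from 26.4 to 27.3 FPKM in the C3H samples to 36.6, 39.9 and 36.0 in Pde6b rd10 (log2 fold change 0.42 ± 0.04, edgeR adjusted p = 8.15e-08). Gad1 rose to 39.8, 40.6 and 41.6 FPKM (log2 fold change 0.21 ± 0.04, edgeR adjusted p = 5.22e-05). Both genes lay above all C3H samples, and both kept their call against the C3H sample of PN23 alone (0.40 and 0.20). Their partners stayed near C3H: Gad2 read 14.3, 14.2 and 14.9 FPKM and Slc32a1 36.9, 40.6 and 35.6, overlapping C3H, with log2 fold changes of -0.00 ± 0.05 and -0.00 ± 0.06 (edgeR adjusted p = 0.967 and 0.960). Pax6 rose to 23.6, 22.9 and 24.1 FPKM (log2 fold change 0.19 ± 0.04, edgeR adjusted p = 2.24e-04), while Tfap2b fell to 36.8, 36.1 and 38.1 (log2 fold change -0.19 ± 0.04, edgeR adjusted p = 2.13e-04). The 2 transcription factors thus moved apart, each without overlap with C3H.

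Acetylcholine's synthetic enzyme and its vesicular transporter also separated in Pde6b rd10. Chat rose to 2.99, 2.94 and 2.51 FPKM, above all C3H values (log2 fold change 0.41 ± 0.10, edgeR adjusted p = 0.00226). Slc18a3 read 5.59, 5.11 and 5.20 FPKM, just under the lowest C3H sample of 5.66, with a log2 fold change of -0.27 ± 0.09 (edgeR adjusted p = 0.0175). That call was lost without the C3H sample of PN29 (-0.19), against the C3H sample of PN23 alone (-0.23), in the fit of all 12 samples (-0.27, edgeR adjusted p = 0.0573) and by limma on log2(FPKM + 1) (-0.18) or log2(FPKM + 0.1) (-0.21). Th scattered widely, at 0.786, 1.22 and 0.402 FPKM from 46, 54 and 19 reads, and its log2 fold change of -0.36 ± 0.27 (edgeR adjusted p = 0.266) rested on single libraries: it was -0.75 and passed without Pde6b rd10 replicate 2.

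In Prph rd2 at PN29 the differences were fewer. Gad1 and Slc6a9 were higher by the edgeR adjusted p, 2 of the 9 where 4.53% of all genes were higher, and none was lower (5.17% of all genes). At 1.5-fold, 0 of the 9 and 4.57% of all genes were called, and 0 were called by DESeq2 or limma. Without the fold threshold, 4 had an unadjusted p under 0.05, as did 23.8% of all genes. The median log2 fold change of the 9 was 0.03.

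Gad1 read 39.7, 41.4 and 42.1 FPKM in Prph rd2, above the 33.7 to 34.1 of C3H (log2 fold change 0.24 ± 0.04, edgeR adjusted p = 0.00247). Slc6a9 read 36.5, 33.9 and 31.7 FPKM, above the 26.4 to 27.3 of C3H (log2 fold change 0.30 ± 0.06, edgeR adjusted p = 0.00281). Against the C3H sample of PN29 alone the sizes were similar, 0.24 and 0.29, but the calls were lost (edgeR adjusted p = 0.280 and 0.235). Chat (2.75, 2.74 and 2.43 FPKM) and Gad2 (16.4, 15.0 and 16.9) also lay above all C3H samples, with log2 fold changes of 0.34 ± 0.11 and 0.17 ± 0.06 that missed the threshold (edgeR adjusted p = 0.0586 and 0.0884). Slc32a1 (34.0 to 40.7 FPKM), Slc18a3 (5.23 to 7.48), Th (0.855 to 1.04), Pax6 (18.4 to 21.4) and Tfap2b (37.3 to 43.3) overlapped C3H, with log2 fold changes between -0.10 and 0.03.

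**Figure D2:**
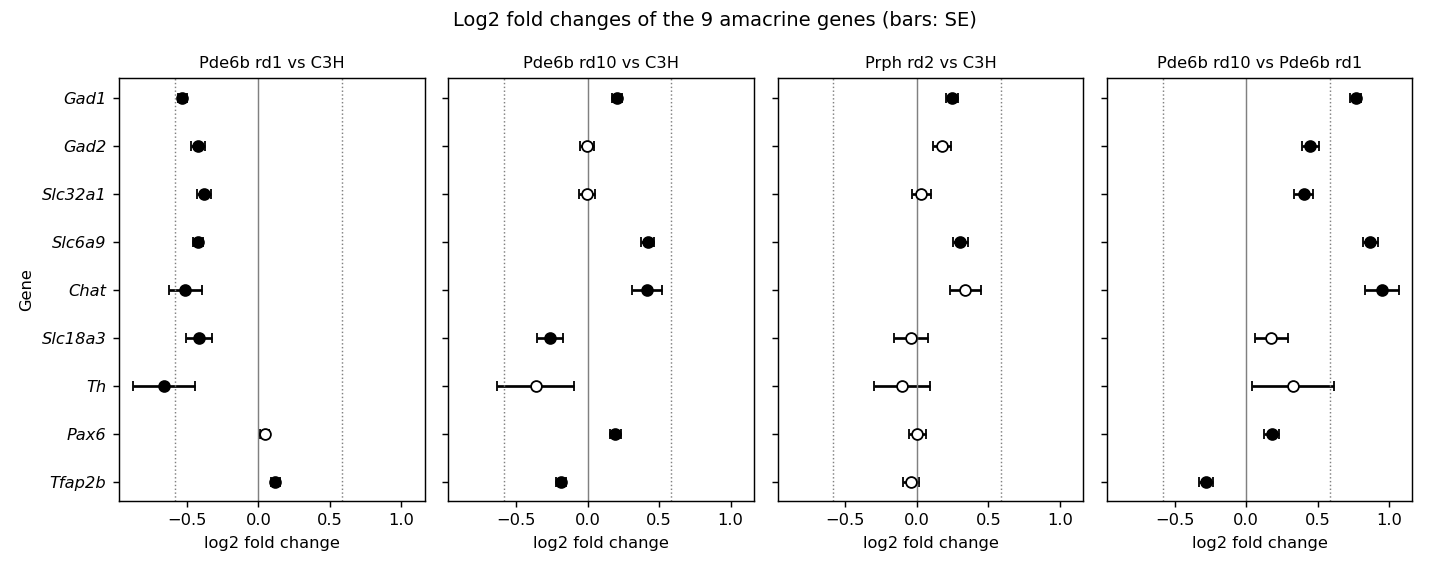
Log2 fold change of each gene (horizontal axis) in the 4 comparisons by edgeR, with SE bars. Filled points have an adjusted p under 0.05, dotted lines mark 1.5-fold. Gad1, Slc6a9 and Chat lie left of 0 in Pde6b rd1 (-0.53, -0.42 and -0.51) and right of 0 in Pde6b rd10 (0.21, 0.42 and 0.41).

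The mutations of Pde6b rd1 and Pde6b rd10 hit the same gene, and the groups were compared with each other in a fit of all 12 samples. In Pde6b rd10, 6 of the 9 genes were higher than in Pde6b rd1 by the edgeR adjusted p (30.2% of all genes were) and 1, Tfap2b, was lower (27% of all genes). At least 1.5-fold higher were 3, beside 17.6% of all genes: Chat (log2 difference 0.95 ± 0.12, edgeR adjusted p = 7.07e-07), Slc6a9 (0.87 ± 0.05, 1.91e-11) and Gad1 (0.77 ± 0.04, 7.51e-13). Gad2 and Slc32a1 differed less, by 0.45 ± 0.06 and 0.40 ± 0.07 (edgeR adjusted p = 1.82e-06 and 3.57e-05). Pax6 differed by 0.18 ± 0.05 and Tfap2b by -0.28 ± 0.05 (edgeR adjusted p = 0.00513 and 5.75e-05). Slc18a3 (0.18 ± 0.12, edgeR adjusted p = 0.210) and Th (0.33 ± 0.29, edgeR adjusted p = 0.346) did not pass. Without Pde6b rd10 replicate 3, the Th difference was 0.64 and passed (edgeR adjusted p = 0.0325). The 2 groups differed in day, background and sex as well as in allele.

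Ordered by mean level, Pde6b rd1 was lowest of the 4 groups for all 7 transmitter genes. Its values did not overlap those of the next group for Gad1, Gad2, Slc32a1, Slc6a9 and Chat, where the next group was C3H, and did for Slc18a3 and Th, where it was Pde6b rd10. Prph rd2 or Pde6b rd10 stood highest for Gad1, Gad2, Slc32a1, Slc6a9 and Chat, and their ranges overlapped each other except for Gad2. The transcription factors had other orders: Pax6 was highest in Pde6b rd10, apart from the rest, and Tfap2b highest in Pde6b rd1, apart from C3H.

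Pairs of related genes, 3 of transmitter genes and 1 of transcription factors, were then set against each other within each sample, as ratios of FPKM, which need no scaling between libraries. Chat to Slc18a3 was 0.531 ± 0.047 (SD, n = 3) in Pde6b rd10, 0.439 ± 0.065 in Prph rd2 and 0.308 ± 0.030 in Pde6b rd1, against 0.332 ± 0.017 in C3H. The ratio was 1.60-fold higher in Pde6b rd10 and 1.32-fold higher in Prph rd2 than in C3H, with no overlap of samples. Slc6a9 to Slc32a1 rose from 0.743 ± 0.038 in C3H to 0.898 ± 0.056 in Prph rd2 and 0.995 ± 0.015 in Pde6b rd10, and was 0.720 ± 0.011 in Pde6b rd1. Gad1 to Gad2 was 2.43 ± 0.133 in C3H and 2.81 ± 0.045 in Pde6b rd10, and Pax6 to Tfap2b was 0.488 ± 0.014 and 0.636 ± 0.005. In Pde6b rd10 all 4 ratios lay above every C3H sample. Gad1 to Slc32a1 and Slc6a9 to Gad1 were also formed and are not in the figure. In Pde6b rd1, Gad1 to Slc32a1 was 0.806 to 0.855, below the 0.891 to 1.00 of C3H. Slc6a9 to Gad1 was 0.840 to 0.880 there, above the 0.785 to 0.801 of C3H. Gad1 to Slc32a1 was 1.00 to 1.17 in Pde6b rd10 and 1.01 to 1.24 in Prph rd2, the lowest values just above the highest of C3H. Slc6a9 to Gad1 was 0.864 to 0.982 in Pde6b rd10, above C3H, and 0.753 to 0.920 in Prph rd2, overlapping it. With 3 against 3 samples a two-sided exact permutation test cannot go below p = 0.1. The 4 ratios in Pde6b rd10 reached this value, as did Gad1 to Slc32a1 and Slc6a9 to Gad1 in Pde6b rd10 and in Pde6b rd1. In Prph rd2 it was reached by Chat to Slc18a3, Slc6a9 to Slc32a1 and Gad1 to Slc32a1. Over the 18 ratio tests made, the adjusted p of all of these was 0.164.

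**Figure D3:**
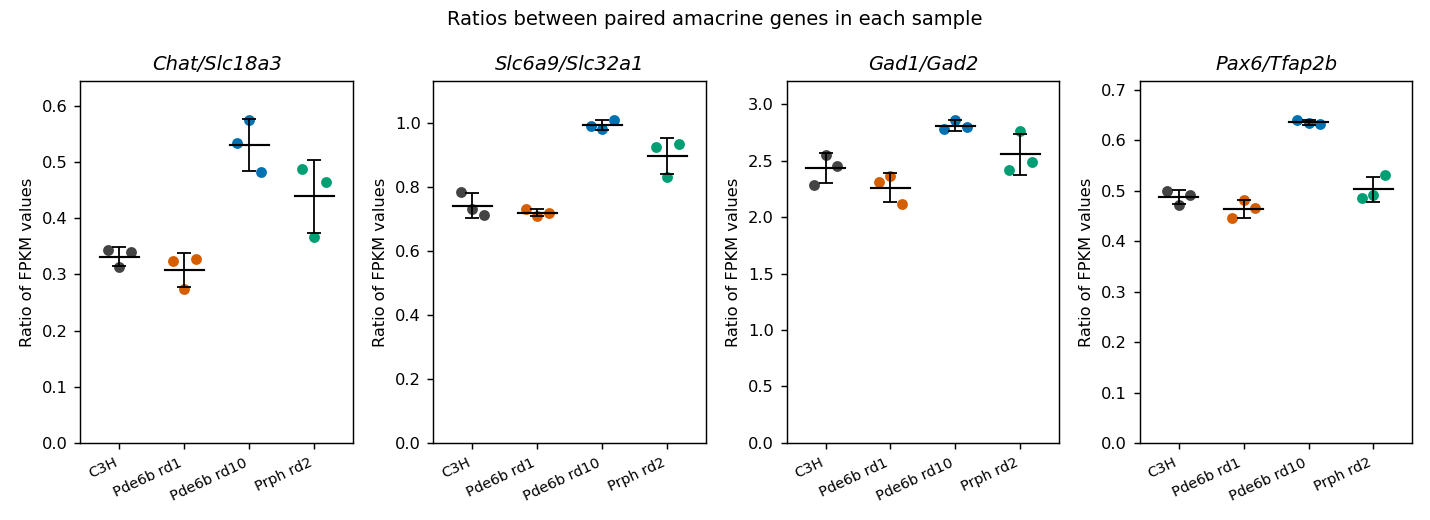
Ratio of the FPKM values of 2 genes within each sample (vertical axes from 0), for 4 pairs and 4 groups of 3 samples. Points are samples, lines are means and bars SD. Pde6b rd10 lies above C3H in each panel, most for Chat to Slc18a3 (0.531 against 0.332), while Pde6b rd1 overlaps C3H in each.

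Chat and Slc18a3 form a nested locus on chromosome 14. Whether the locus has a part in their different levels was not tested. By GENCODE vM21 on GRCm38, Chat spans chr14:32408203-32465989 on the minus strand in 17 exon blocks, and Slc18a3, a gene of 1 exon at chr14:32462438-32464850, lies inside it on the same strand and shares no exon bases with it. Reads in the exons of Chat could thus not be counted on Slc18a3. Unspliced Chat RNA would also cover the Slc18a3 exon, and its part in the Slc18a3 reads was not tested. Each has a start of its own, and the bases before each RefSeq start (GRCm38.p6) that lie in no annotated exon are shown, 191 for Slc18a3 (chr14:32464851-32465041) and 170 for Chat (chr14:32465990-32466159), 5′ to 3′ on the minus strand. Capitals mark matches to GCCNNNGGC, the motif of the AP-2 family to which Tfap2b belongs.
Slc18a3: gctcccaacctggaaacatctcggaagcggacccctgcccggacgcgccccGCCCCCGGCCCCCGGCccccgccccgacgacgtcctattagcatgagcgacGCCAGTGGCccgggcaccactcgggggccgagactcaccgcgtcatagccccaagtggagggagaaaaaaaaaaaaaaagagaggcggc
Chat: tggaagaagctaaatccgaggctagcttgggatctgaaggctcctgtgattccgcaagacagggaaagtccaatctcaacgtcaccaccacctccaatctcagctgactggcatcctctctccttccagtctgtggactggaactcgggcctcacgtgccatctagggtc
The Slc18a3 stretch held 3 matches, from -140 to -132, -133 to -125 and -89 to -81 counted back from the start with the first 2 overlapping, and the Chat stretch held none. On either strand the motif, which reads the same on both, was found in 16.6% of 32851 promoter windows of 300 bases. The 9 genes had 12 such windows, and 3 of these held it, those of Slc18a3, Gad2 and Pax6. A match describes the letters only.

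The GABA-synthesising pair sits on chromosome 2, with Gad1 at chr2:70553072-70602014 and Gad2 at chr2:22622205-22693874, both on the plus strand. The bases before their RefSeq starts outside annotated exons are shown because Gad1 rose in Pde6b rd10 and Gad2 did not, 163 bases for Gad1 (chr2:70561879-70562041) and 128 for Gad2 (chr2:22622077-22622204), with AP-2 matches in capitals.
Gad1: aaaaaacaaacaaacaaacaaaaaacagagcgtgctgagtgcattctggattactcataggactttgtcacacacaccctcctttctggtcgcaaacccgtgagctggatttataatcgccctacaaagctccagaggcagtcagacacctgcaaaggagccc
Gad2: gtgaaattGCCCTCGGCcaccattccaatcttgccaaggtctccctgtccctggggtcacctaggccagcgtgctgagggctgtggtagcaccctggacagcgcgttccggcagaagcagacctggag
Gad1 had a TATAAA match on the opposite strand from -141 to -136, a motif in 13.6% of windows. Gad2 had AP-2 matches from -242 to -234, in the printed stretch, and from -121 to -113, outside it. The E-box CAGCTG, in 16.3% of windows, was found for Chat, and the cyclic AMP response element TGACGTCA, in 1.79%, for Th (from -45 to -38) and Pax6 (from -76 to -69).

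The other genes lay at chr2:158610767-158615748 (Slc32a1), chr4:117834506-117875198 (Slc6a9), chr7:142892752-142931128 (Th, minus strand), chr2:105668900-105697364 (Pax6) and chr1:19208914-19238576 (Tfap2b). Slc6a9 shares 1429 exon bases with Ccdc24 on the opposite strand, and Slc32a1 shares 697 with Gm14205. The libraries were directional, but whether strand was used in counting is not given in the sources used here, so these reads may not be fully apart. Ccdc24 had 654 to 816 reads in Pde6b rd10, 393 to 455 in Prph rd2, 202 to 247 in Pde6b rd1 and 536 to 592 in C3H, against 1917 to 4661 for Slc6a9. Ccdc24 was thus low and high in the same Pde6b models as Slc6a9, and its part in the Slc6a9 values was not tested. Gm14205 had 47 to 191 reads per sample.

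Circular RNAs, made by back-splicing of exons, were listed for 2 of the 9 genes. Pax6 had 3, all with ends at annotated exon borders, and 57 junction reads in all. The most frequent, at chr2:105683828-105691723, had 2 to 4 reads in each C3H sample, 3 to 7 in each Pde6b rd10 sample, 0 to 6 per Prph rd2 sample and 0 in each Pde6b rd1 sample, where the linear Pax6 level was not lower. Pde6b rd1 also had the fewest circRNA junction reads, 9819 to 14966 per sample against 14538 to 22036 in C3H. A second, at chr2:105679810-105685943, had 0 to 7 reads per sample, 8 of them in Pde6b rd1 in all. The third Pax6 circRNA and the 1 of Slc6a9 had 2 reads each, in Pde6b rd10. No test was made on counts of this size.

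Other genes of the same transmitter systems were read from lists of known roles, and counted by the edgeR adjusted p. Of 8 further genes of GABA and glycine handling, 7 were lower in Pde6b rd1 (21.3% of all genes) and none higher (21.9%). The median log2 fold change of the 8 was -0.32. The 7 lower genes included Slc6a5, the neuronal glycine transporter GlyT2 (-0.56 ± 0.06), and Abat, which degrades GABA (-0.31 ± 0.03). In Pde6b rd10, 3 were higher (27.7% of all genes) and 4 lower (26.3%). In Prph rd2, 1 was higher, Slc6a5 (0.21 ± 0.06), beside 4.53% of all genes, and none was lower (5.17%). One gene stood apart: Slc6a13, the GABA transporter GAT2, was at 4.32 to 4.45 FPKM in Pde6b rd10 against 0.544 to 0.626 in C3H (log2 fold change 2.84 ± 0.13). GAT2 is known from non-neuronal cells, and the summed level of 8 lens, cornea and ciliary body genes was 19.1 to 21.8 FPKM in Pde6b rd10 against 1.83 to 2.29 in C3H, with Krt14 at 0 in both groups. Only 3 of those 8 genes passed the filter, all 3 of them higher in Pde6b rd10, and their part in the Slc6a13 value was not tested.

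Of 8 further cholinergic and starburst cell genes, some were higher and some lower in both Pde6b models. Slc5a7, the high-affinity choline transporter, was at 3.34 to 4.11 FPKM in Pde6b rd10, 2.07 to 2.44 in C3H and 1.45 to 1.78 in Pde6b rd1 (log2 fold changes 0.74 ± 0.09 and -0.52 ± 0.10). Ache, which breaks down acetylcholine, had log2 fold changes of 0.25 ± 0.06 and -0.45 ± 0.05 in the same order. In contrast, Isl1, a transcription factor of starburst and bipolar cells, had log2 fold changes past the threshold in all 3 models, 0.33 ± 0.04 in Pde6b rd1 but -0.44 ± 0.05 in Pde6b rd10 and -0.24 ± 0.05 in Prph rd2. Pde6b rd1 had 2 of the 8 genes higher and 3 lower, Pde6b rd10 had 4 and 2, and Prph rd2 had 0 and 1. Of all genes, 21.9% and 21.3%, 27.7% and 26.3%, and 4.53% and 5.17% were so called, in the same order.

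For dopamine, 10 of 11 further genes could be tested. Of these, 2 were higher and 2 lower in Pde6b rd10, beside 27.7% and 26.3% of all genes. In Pde6b rd1, 1 was higher and 2 were lower, beside 21.9% and 21.3%. The list did not exceed those shares. In Pde6b rd10, Gch1, which makes the cofactor that Th needs, rose by 1.25 ± 0.22 on the log2 scale, from 21 to 24 reads per C3H sample to 48 to 67, and Slc18a2, the vesicular monoamine transporter, rose by 0.81 ± 0.14, while Nr4a2, a transcription factor of dopaminergic neurons (-0.36 ± 0.09), and Spr, of the same cofactor pathway as Gch1 (-0.34 ± 0.10), were lower. In Pde6b rd1, Slc18a2 was also higher (0.52 ± 0.15), and Qdpr, which regenerates the cofactor (-0.32 ± 0.05), and Spr (-0.26 ± 0.09) were lower. In Prph rd2 none of the 10 passed the threshold.

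Of 15 further amacrine transcription factors tested, 7 were higher and none lower in Pde6b rd1, where 21.9% of all genes were higher, and 8 did not pass. The largest increases among the 7 were those of Prox1 (0.37 ± 0.03) and Meis1 (0.30 ± 0.04). The median log2 fold change was 0.16. In Pde6b rd10, 9 were lower (26.3% of all genes) and 1 higher (27.7%), with a median of -0.20. The lower ones included Tfap2c, a paralogue of Tfap2b, from 6.50 to 7.07 FPKM in C3H to 3.80 to 4.34 (log2 fold change -0.75 ± 0.08), as well as Bhlhe22 (-0.76 ± 0.05). Tfap2a, another paralogue, had log2 fold changes of 0.15 ± 0.04 in Pde6b rd1 and -0.18 ± 0.05 in Pde6b rd10, close to the 0.12 and -0.19 of Tfap2b. None of the 15 passed in Prph rd2.

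Markers of amacrine subtypes spread widely. In Pde6b rd1, 7 of 13 were lower and 2 higher, the lower ones including the peptide genes Vip (-1.31 ± 0.13) and Penk (-1.29 ± 0.14), the nitric oxide synthase Nos1 (-0.74 ± 0.07) and Slc17a8, the vesicular glutamate transporter of glutamatergic amacrine cells (-0.67 ± 0.09). In Pde6b rd10, 3 were higher, Slc17a8 (0.69 ± 0.07), Penk (0.76 ± 0.11) and Cck, and 5 lower, Gbx2 (-0.90 ± 0.28), Npy, Gjd2 (-0.36 ± 0.04), Calb2 (-0.25 ± 0.04) and Dab1 (-0.17 ± 0.05). In Prph rd2, 2 were higher and 1 lower. Background shares of all genes, higher then lower, were 21.9% and 21.3% for Pde6b rd1 and 27.7% and 26.3% for Pde6b rd10. They were 4.53% and 5.17% for Prph rd2. Cck, a peptide gene, was at 0.656 to 1.04 FPKM in C3H, 0.140 to 0.405 in Pde6b rd1, 1.99 to 2.66 in Prph rd2 and 4.18 to 5.53 in Pde6b rd10, and no 2 of these groups overlapped. Its levels in Pde6b rd1 and C3H rested on few reads, 4 to 9 and 17 to 27 per sample. Npy went the other way, with log2 fold changes of 0.60 ± 0.11 in Pde6b rd1 and -0.50 ± 0.14 in Prph rd2, and -0.68 ± 0.13 in the third model.

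**Figure D4:**
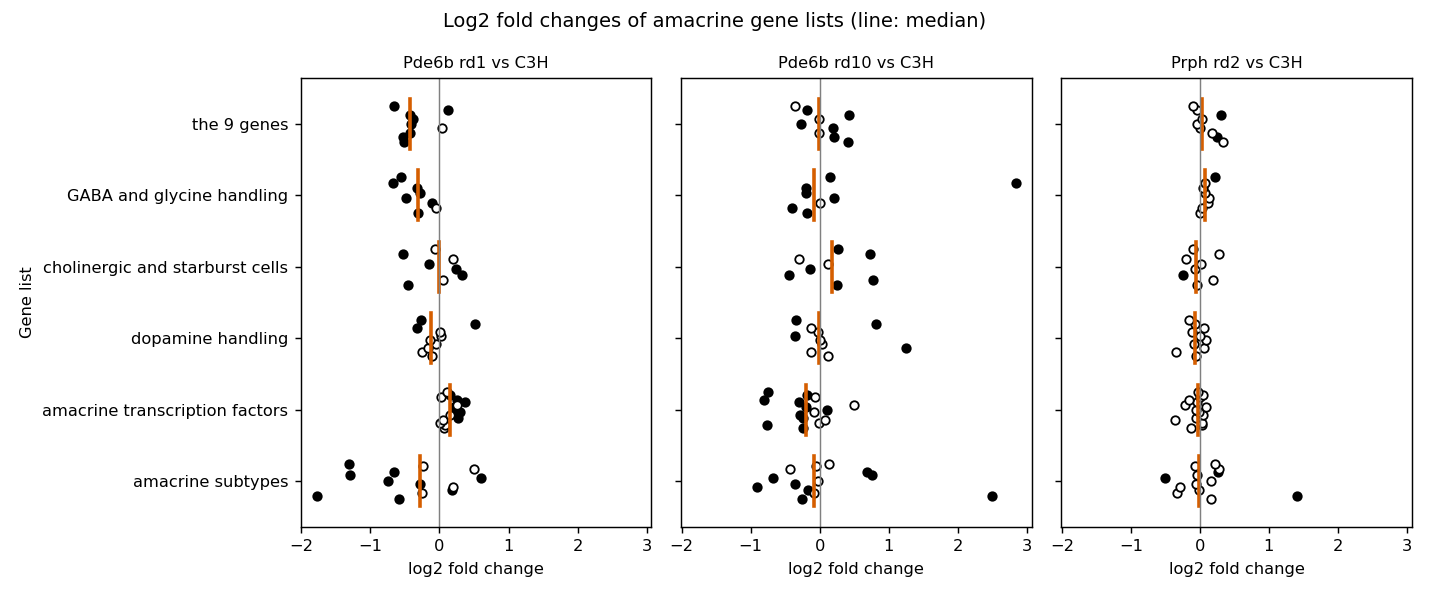
Log2 fold changes (horizontal axis) against C3H of the 9 genes and of 5 further amacrine gene lists, 1 point per gene tested. Filled points have an adjusted p under 0.05 and the line is the list median. In Pde6b rd1 the medians of the 9 genes (-0.42) and the GABA and glycine list (-0.32) lie left of 0 and that of the transcription factors (0.16) right of it.

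Lists of other retinal cells moved in the same comparisons. As background, 21.9% of all genes passed upward and 21.3% downward in Pde6b rd1, and 27.7% and 26.3% in Pde6b rd10. In Pde6b rd1, 8 of 10 ganglion cell genes (median log2 fold change -0.40), 6 of 9 Mueller glia genes (-0.48), 7 of 11 bipolar cell genes (-0.17) and 8 of 9 rod genes (-0.64) were lower, so a decrease was not particular to the amacrine transmitter genes. Horizontal cell genes, whose type shares Gad1 and Slc32a1, had 2 higher and 2 lower of 7 in Pde6b rd1 (median -0.01) and 3 higher and 1 lower in Pde6b rd10 (-0.02). Mueller glia genes, of a type in which Slc6a9 is also known, had 5 higher and 4 lower of 9 in Pde6b rd10 (median 0.28), with summed levels of 1109 to 1182 FPKM against 991.0 to 1023 in C3H and 567.5 to 574.9 in Pde6b rd1. Microglia genes were higher in Pde6b rd10, 8 of 9, with summed levels of 80.2 to 90.9 FPKM against 23.9 to 24.9 in C3H. The part of these cell types in the values of the 9 genes was not tested.

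The genes whose levels followed each member most closely over the 12 samples were found by the root mean square difference of log2 CPM (reads scaled to equal library totals), centred on the C3H mean, among genes of at least 5 CPM on average. For Gad1 these were Tef, Atp1b1 and 6430548M08Rik (0.04 to 0.06 log2 units), for Gad2 they included Oxr1 and Nr1d2, and for Slc32a1 Zfp651, Hdac5 and Ggt7. For Slc6a9 they were Bhlhe41, Snph and Grin1 (0.05 to 0.07), and for Pax6 Tle4, Vps35l and Tox4. Tfap2b had the closest neighbour of all, Sh3pxd2a (0.03), then Kat6a and Fermt2. For Chat they included Hdac11 and Dock8 (0.12 to 0.13), and for Slc18a3 they were 2810006K23Rik, A630072M18Rik and Zcchc3 (0.08 to 0.11). No pair of members shared any of their 3, so this does not set Chat and Slc18a3 apart. Th, the gene with the fewest reads, had the most distant ones, Pdxp, Cdk5r2 and Gm44856 (0.26 to 0.27). The likeness is a description over samples of shared groups.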

How the data were processed

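Ribosomal RNA-depleted directional libraries of 12 whole-retina samples from mice were analysed, grouped by the genotype in the sample labels. For the deposited gene counts, the authors mapped reads to GRCm38 and assigned them to genes by HTSeq 0.11.2, with no normalization. The deposited FPKM values are these counts divided by the authors by gene length and reads counted on genes, and the implied lengths equalled the GENCODE vM21 exon lengths of the 9 genes. The deposited circRNA junction counts came from TopHat2 2.1.1 and CIRCexplorer. The circRNA TPM values made by the authors were not used. Columns of the authors' comparisons were not used.

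Counts were tested in R 4.3.3 with edgeR 4.0.16 (TMM factors, its filter on low counts, quasi-likelihood test), each model against C3H in a fit of 6 samples and Pde6b rd10 against Pde6b rd1 in a fit of 12. Adjusted p-values are Benjamini-Hochberg over all genes tested. Counts of called genes needed at least 1.5-fold and an unadjusted p under 0.05, or, where stated, an adjusted p under 0.05. A single gene's call that was kept, lost or gained refers to an adjusted p under 0.05, unless 1.5-fold is named. SE is the log2 fold change over the root of the F statistic. Ratios were tested by exact permutation in scipy 1.17.1. DESeq2 1.42.0 and limma 3.58.1 on log2(FPKM + 1) or log2(FPKM + 0.1) were alternatives, as were other size factors, no filter, a replicate block, 1 fit of 12 samples, leaving out each replicate, and the C3H sample of the same day alone. The count of genes at an adjusted p was added after the data were seen. The steps were tested on simulated data. The 9 genes and the lists were chosen with earlier results of these data known. All 9 genes are named. By rule, lists of amacrine genes are given by counts with the called genes, and the 3 genes most like each of the 9 are named, except that some genes are not reported here. Other list genes named, including Slc6a5, Abat, Ache, Isl1, Prox1, Meis1, Tfap2a, Nr4a2, Spr, Qdpr, Gjd2, Calb2, Dab1 and Krt14, were chosen after their values were seen.

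Depth was 17049495 to 24755890 reads counted on genes per sample, which limits Th and Chat most. Positions are from GENCODE vM21 and promoter windows, 250 bases before to 50 after a start, from RefSeq (GRCm38.p6), where all 9 genes matched.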

Additional observations from a re-analysis of the deposited data

Results flagged for a closer look

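The responses of 3 genes differed between the 2 Pde6b models by a test of the difference itself. The log2 difference of Pde6b rd10 minus Pde6b rd1 was 0.95 for Chat, 0.87 for Slc6a9 and 0.77 for Gad1 (edgeR adjusted p = 7.07e-07, 1.91e-11 and 7.51e-13). Each was below C3H in all 3 Pde6b rd1 samples and above it in all 3 Pde6b rd10 samples. In the same comparison 17.6% of all genes were at least 1.5-fold higher in Pde6b rd10. The models also differ in day, background and sex, which cannot be told apart from the allele here.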

How the results depend on the processing

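Over 531 recomputed fold changes of the 9 genes, 503 kept their direction and their side of an adjusted p of 0.05, or kept the side alone where neither passed, 17 lost the call, 11 gained it, and no called change reversed. Gad1, Gad2, Slc32a1 and Slc6a9 in Pde6b rd1, and Gad1, Slc6a9, Chat, Pax6 and Tfap2b in Pde6b rd10, kept their calls in every alternative run. By limma on log2(FPKM + 1), 1097 genes were called in Pde6b rd1, 2035 in Pde6b rd10, 166 in Prph rd2 and 2929 between Pde6b rd10 and Pde6b rd1, in place of 2749, 4479, 850 and 5644 by edgeR. Prph rd2 had 384 called genes with an adjusted p as the threshold and 1300 with no filter on low counts, where 4 of the 9 genes had an adjusted p under 0.05 instead of 2 (Chat and Gad2 added). Of the 9 genes, 1 was called at 1.5-fold in Pde6b rd1, 0 by limma with either pseudocount or against the C3H sample of the same day, and 0 to 2 when each replicate was left out: 0 without the C3H sample of PN23 and 2 (Th and Chat) without Pde6b rd1 replicate 1. In Pde6b rd10 the range was 0 to 1, Th being called without replicate 2, and in Prph rd2 the range over all genes was 745 to 1435, the highest without replicate 2. Against the C3H sample of the same day alone, an adjusted p under 0.05 was left to 4 of the 9 in Pde6b rd1 and to 0 in Prph rd2, with fewer samples in the fit. Other causes were not tested. Samples of the same replicate number did not deviate together (correlations from -0.09 to 0.15), so the numbers do not pair them, and a fit with a replicate block called 2774, 4434, 855 and 5696 genes and left 8, 6, 2 and 7 of the 9 genes at an adjusted p under 0.05, as without it. Values of Th, at 19 to 65 reads per sample, are limited by depth.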
